A study of Mus musculus with 6 samples.

Results

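Peaks of GLI3R binding that appeared in doxycycline-treated cells at the ends of protein-coding genes are described here. They number 313 of the 8019 peaks in the 2 deposited lists. They were chosen by 2 measured features of a doxycycline peak on chromosomes 1 to 19 or X: no base shared with any untreated peak, and a midpoint at most 1 kb from an end of some protein-coding gene interval. The study measured binding by ChIP-seq in cardiac progenitor cells that were differentiated from mouse embryonic stem cells and harvested on day 6. All 6 libraries came from the GLI3R-FTA cell line (strain A2Lox.cre), so the untreated cells carry the tagged GLI3R construct too. The doxycycline group (GLI3R OE, for overexpression) received 500 ng/ml doxycycline from day 5 to day 6 and has 2 pull-downs and 1 input, and the untreated control group also has 2 pull-downs and 1 input. The protein was recovered through its Avi-tag on streptavidin beads, so the peaks are those of an overexpressed tagged protein and not of the cells' own GLI3. One label disagrees: the text on treatment speaks of GLI1, while sample titles speak of GLI3R, which is the name used here. Whether the line is 1 clone is not given in the sources used here, and expression of cardiac progenitor markers was not analysed here.

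GLI3 is 1 of the zinc finger transcription factors that carry Hedgehog signals to the genome. Without Hedgehog ligand it is cut to a shorter repressor form, GLI3R, which binds the same sequence as the GLI activators and keeps their target genes low. With ligand the cut is prevented and activator forms prevail, and Hedgehog signalling acts on progenitors of the heart field.

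Each condition has a single peak list, so no value below has a replicate error, and nothing below is a test of conditions over samples. The doxycycline list holds 3640 peaks, of which 3567 (98.0%) overlap no untreated peak. In the other direction, 4304 of the 4379 untreated peaks overlap no doxycycline peak, so the lack of overlap is not particular to the doxycycline list. Of those 3567, the 313 members are 8.77% (exact 95% Clopper-Pearson interval 7.87 to 9.75). Of 4304 untreated-only peaks 84 (1.95%) met the same distance rule. Presence in 1 list, absence from the other and the distance chose the members, so these shares are a description. At the edge of the distance rule, the members farthest from a gene end were peaks at Ndst3 and Maf (both 993.5 bp away; 5.85-fold and 4.17-fold) and at Stx2 (990 bp, 5.85-fold). The nearest peaks left out were at Ndst4 (1008 bp, 4.39-fold), Epc1 (1013 bp, 10.96-fold) and Brd2 (1020 bp, 4.91-fold). By the lists' own significance the weakest members were at Samsn1 (−log10 q 1.33), Igf1r (1.45), and Habp4 and Tle3 (both 1.73), each with 5 fragments at the summit.

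The sequences of promoter windows at the peaks come first. Only 77 windows, of 75 genes, overlap a member, so the sequence under most of the 313 members was not read. RefSeq promoter windows (GRCm38.p6, the assembly of mm10) run from 250 bases before to 50 bases after a transcript start, and 21045 windows of protein-coding genes were searched. The GLI consensus GACCACCCA was looked for on both strands, where the opposite strand reads TGGGTGGTC. It was present in 38 of all 21045 windows (0.181%). It was present in 3 of the 77 windows that a member overlaps (3.90%, 0.811 to 10.97), and these 3 are shown with the consensus in capitals, each read 5′ to 3′ along the strand of its gene. They belong to Dynll1, a light chain of the dynein motor (chr5:115300941-115301240, minus strand), Slc25a53, a mitochondrial carrier family gene (chrX:137038253-137038552, minus strand), and Slc35f5, a solute carrier gene (chr1:125560345-125560644, plus strand).
Dynll1: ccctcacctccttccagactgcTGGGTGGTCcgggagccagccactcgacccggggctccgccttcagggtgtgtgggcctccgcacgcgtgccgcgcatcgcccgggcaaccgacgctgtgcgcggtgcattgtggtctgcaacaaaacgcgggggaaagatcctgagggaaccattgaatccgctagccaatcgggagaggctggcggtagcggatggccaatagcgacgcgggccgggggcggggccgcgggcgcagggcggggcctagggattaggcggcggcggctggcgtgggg
Slc25a53: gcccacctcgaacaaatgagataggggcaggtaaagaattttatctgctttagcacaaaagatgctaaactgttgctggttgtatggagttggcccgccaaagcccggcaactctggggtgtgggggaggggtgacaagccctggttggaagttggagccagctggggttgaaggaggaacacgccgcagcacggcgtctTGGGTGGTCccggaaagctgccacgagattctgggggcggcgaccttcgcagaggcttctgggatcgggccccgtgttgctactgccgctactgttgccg
Slc35f5: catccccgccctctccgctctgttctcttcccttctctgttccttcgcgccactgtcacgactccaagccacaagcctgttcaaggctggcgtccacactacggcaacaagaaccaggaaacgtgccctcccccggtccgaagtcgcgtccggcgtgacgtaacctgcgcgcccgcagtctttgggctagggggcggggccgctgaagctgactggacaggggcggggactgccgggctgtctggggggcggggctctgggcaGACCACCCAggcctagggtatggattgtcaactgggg

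The consensus lay close to the summit in all 3. Its centre was 19 bp from the summit of the 10.0-fold Dynll1 peak, which had 13 fragments. It was 5 bp from the summit of the 9.50-fold Slc25a53 peak (12 fragments). It was 29 bp from the summit of the 7.79-fold Slc35f5 peak (10 fragments). The distance is limited by the search, because only windows that a member of 137 to 721 bases overlaps were read.

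A looser search with any base at the fifth position, GACCNCCCA, which includes the consensus, found 8 of the 77 overlapped windows (10.4%, 4.59 to 19.4) and 0.993% of all windows. The 5 further genes were Acp6, a lysophosphatidic acid phosphatase, Gabbr1, a subunit of the GABA-B receptor, Bcam, a laminin-binding adhesion molecule, Tagln2, an actin-binding protein, and H2-Ke6. Bcam held the word TGGGAGGTC at 2 places (chr7:19770483-19770782, minus strand), at 16 and 37 bp from the summit of a 6.58-fold peak. It was picked for print after its values were seen, and the capitals mark both places.
Bcam: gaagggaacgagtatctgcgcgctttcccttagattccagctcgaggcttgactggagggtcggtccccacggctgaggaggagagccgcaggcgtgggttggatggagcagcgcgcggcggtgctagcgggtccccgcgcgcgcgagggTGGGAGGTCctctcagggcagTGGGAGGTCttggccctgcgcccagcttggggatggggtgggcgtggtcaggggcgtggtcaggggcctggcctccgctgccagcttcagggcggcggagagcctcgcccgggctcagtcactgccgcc

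In the other 4 the words were TGGGAGGTC in Acp6 (131 bp from the summit, 10.6-fold) and H2-Ke6 (8 bp, 4.59-fold), TGGGCGGTC in Gabbr1 (8 bp, 6.58-fold) and GACCCCCCA in Tagln2 (12 bp, 5.85-fold). In 7 of the 8 windows the word lay within 50 bp of a summit, with a median of 14 bp over all 8. At Acp6 the word lay in the window but beyond the edge of the peak. The 3 highest-ranked members whose summit lay in or within 150 bp of a window without the full consensus are shown for contrast, with the shorter core CCACCCA in capitals where it occurs. They are Wbp1l, which encodes a WW domain binding protein (chr19:46598856-46599155, plus strand), Kdelr3, a receptor that returns proteins to the endoplasmic reticulum (chr15:79516158-79516457, plus strand), and Oip5, a centromere protein gene (chr2:119618456-119618755, minus strand). The Wbp1l and Kdelr3 summits lay 71 and 29 bp outside these windows, and the Oip5 summit lay 8 bp from a core.
Wbp1l: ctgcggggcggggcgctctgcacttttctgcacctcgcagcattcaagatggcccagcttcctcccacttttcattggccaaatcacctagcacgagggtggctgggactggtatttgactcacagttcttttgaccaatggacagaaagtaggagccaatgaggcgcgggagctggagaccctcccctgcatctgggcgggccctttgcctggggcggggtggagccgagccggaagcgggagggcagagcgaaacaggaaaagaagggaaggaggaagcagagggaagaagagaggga
Kdelr3: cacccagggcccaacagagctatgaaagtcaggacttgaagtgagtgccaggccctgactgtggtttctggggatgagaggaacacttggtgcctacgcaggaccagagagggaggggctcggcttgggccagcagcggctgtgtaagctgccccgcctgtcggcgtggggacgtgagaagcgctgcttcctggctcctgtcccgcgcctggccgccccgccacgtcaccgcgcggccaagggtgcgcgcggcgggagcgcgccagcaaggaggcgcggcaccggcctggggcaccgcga
Oip5: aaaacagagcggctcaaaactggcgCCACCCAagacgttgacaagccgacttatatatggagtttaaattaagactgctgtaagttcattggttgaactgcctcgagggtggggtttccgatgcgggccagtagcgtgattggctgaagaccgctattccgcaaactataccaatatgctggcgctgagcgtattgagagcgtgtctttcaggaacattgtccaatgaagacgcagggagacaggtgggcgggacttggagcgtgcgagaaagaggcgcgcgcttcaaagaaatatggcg

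The fold enrichment of a peak is the authors' ratio of the fragments over its summit to the local expectation, taken here with 1 added to each. It ran from 3.86 to 21.2 among the members, with a median of 6.39 (order-statistic 95% interval 5.85 to 6.58) and quartiles of 5.12 and 7.79. The −log10 q ran from 1.33 to 38.3 with a median of 5.13. The pileup, the number of fragments over the summit worked back from the authors' fold and −log10 p, ran from 5 to 28 with a median of 8. A pileup of 5, the smallest in the doxycycline list, was found at 44 members. Most members therefore rest on few fragments: at the strongest, with 28, the exact 95% Poisson interval is 18.6 to 40.5, and at 14 it is 7.65 to 23.5. These intervals cover counting error only.

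The other 3254 doxycycline-only peaks had lower central values. Their median fold was 5.12, their median −log10 q 3.07 and their median pileup 6 fragments. A −log10 q of at least 5 was reached by 157 members (50.2%) and by 31.0% of the others, and a pileup of at least 10 by 86 members (27.5%) and by 14.6% of the others. The members were also wider, with a median of 184 bp against 159 bp. The highest values lay elsewhere, since the other peaks reached 36.5-fold. No member had a local expectation above 2 times the list's usual 0.368 fragments, and the highest was 0.712. Only 7 of the 3254 others exceeded that limit, so this does not set the members apart. The 84 untreated-only peaks at gene ends had a median fold of 4.72 and a median pileup of 5, on the untreated list's own scale. Values from separate lists are set side by side and not compared.

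**Figure D1:**
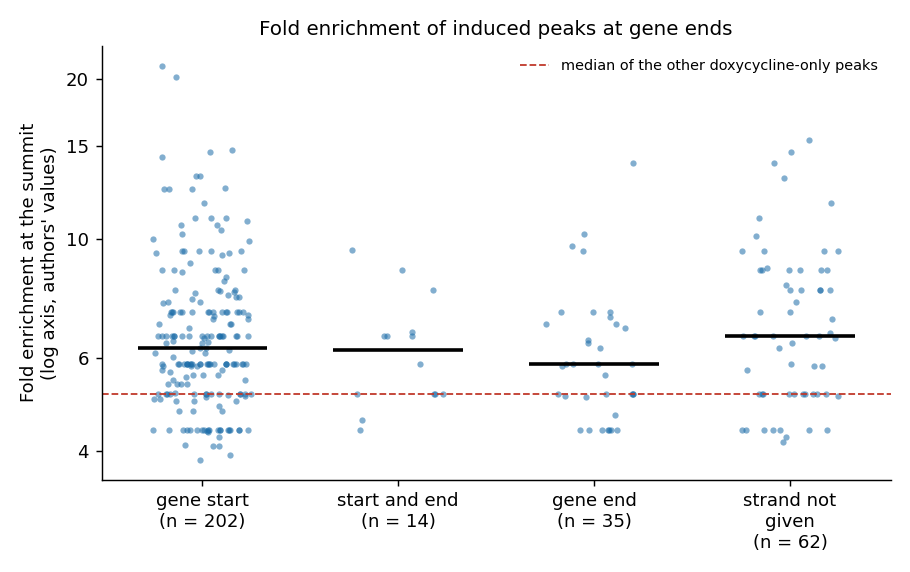
Fold enrichment at the summit (log axis) of each of the 313 members, by the gene end it lies at; black bars are medians. The medians of the 4 classes lie between 5.85 and 6.58, all above the dashed line at 5.12, the median of the other doxycycline-only peaks.

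The distance rule treats both ends of a gene alike, and the members did not. Strand was taken from the promoter table, which holds 17274 of the 21631 protein-coding genes and 262 of the 326 genes with a member. For 251 members at least 1 such gene was in reach. Of these, 216 (86.1%, 81.1 to 90.1) lay at a gene start, 14 of them within 1 kb of a gene end too, and 35 lay at a gene end alone. In this count every gene interval has 1 start and 1 end, and a peak in reach of both counts at a start. The promoter table holds 21045 windows for 17274 genes, so some genes have further starts. Among untreated-only peaks with strand, 32 of 71 (45.1%, 33.2 to 57.3) lay at a start. Both intervals cover counting error over peaks of 1 list each, so they are no test of the conditions.

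Members with the smallest pileup, 5, lay at a start in 80.0% of cases (63.1 to 91.6). With 6 to 9 fragments the share was 84.5% (77.8 to 89.8), and with at least 10 it was 93.4% (84.1 to 98.2). These 3 intervals overlap. Median fold was 6.26 for the 202 members at a start alone, 5.85 for the 35 at an end alone and 6.58 for the 62 without strand. The strongest peaks at an end alone were at BC034090 (13.9-fold), Tmem239 (10.2-fold), Ankrd1, a cardiac ankyrin repeat protein (9.73-fold), and Prss40, a serine protease gene (9.50-fold).

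Around the start, members lay on both sides. Of the 216, 92 (42.6%) were upstream and 124 (57.4%) inside the gene, at a median distance of 387 bp. Within 250 bp of the start lay 76 members (35.2%, 28.8 to 42.0), against 2 of 32 untreated-only peaks (6.25%, 0.766 to 20.8). From 1000 to 250 bp upstream, the 3 bins of 250 bp held 7, 7 and 8 of the 32 untreated-only peaks.

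**Figure D2:**
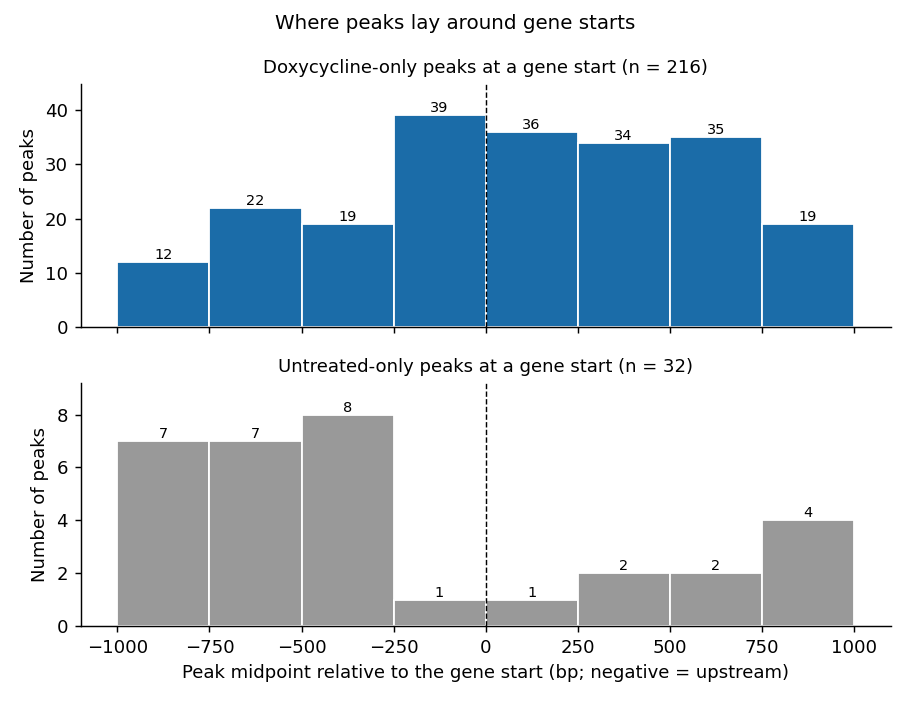
Number of peaks in bins of 250 bp by distance of the midpoint from the nearest gene start, for 216 members (top) and 32 untreated-only peaks (bottom); the vertical axes differ. The 2 bins beside the start hold 39 and 36 members, and 1 untreated-only peak each.

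The promoters at the members were rich in G and C. For the 204 windows whose start lies within 1 kb of a member (184 genes), the median G+C content was 65.7%, with quartiles of 59.3 and 71.8%. For the 77 windows that a member overlaps it was 67.3%. For all 21045 windows it was 56.7%, and for the 37 windows near untreated-only peaks 55.7%. The ratio of observed to expected CpG, which is high in CpG islands, had a median of 0.762 in the 204 windows and 0.574 in all.

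**Figure D3:**
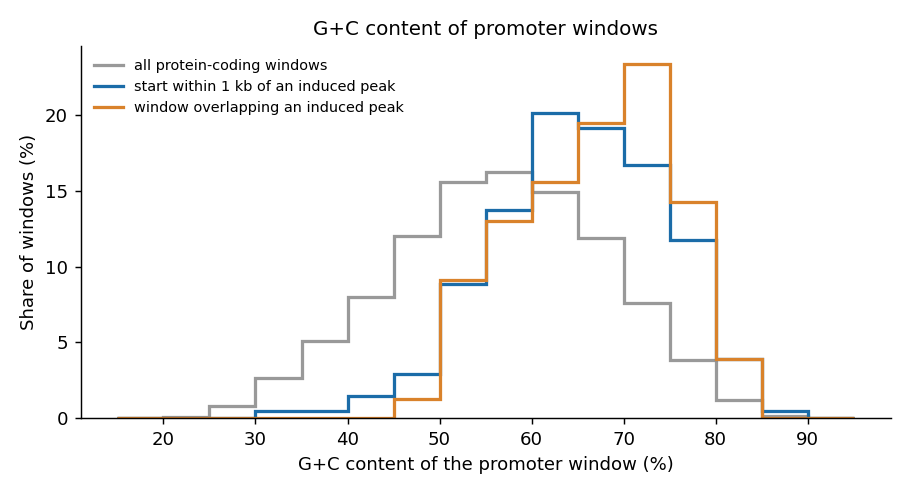
Share of promoter windows in bins of 5 percentage points of G+C content, for windows near a member, windows that a member overlaps and all protein-coding windows. The member windows lie to the right of all windows, with medians of 65.7, 67.3 and 56.7%.

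Some words rich in G and C were more frequent in the same windows. The Sp1 box GGGCGG was in 79.2% of overlapped windows (68.5 to 87.6) and 46.7% of all. The word CCACCC, which KLF and Sp factors bind and which the GLI consensus contains, was in 63.6% (51.9 to 74.3) and 33.8%. The GLI core CCACCCA was in 29.9% (19.97 to 41.4) and 9.55%. CCAAT, bound by NF-Y, was in 29.9% (19.97 to 41.4) and 38.5%, and TATAAA in 7.79% (2.91 to 16.2) and 12.7%. Both of these intervals include the share in all windows.

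Of the remaining words, the E-box alone had an interval that did not include the share in all windows. The ETS word CCGGAAG was in 19.5% (11.3 to 30.1) against 11.7%, and the NRF1 motif, named only, in 14.3% (7.35 to 24.1) against 8.66%. The E-box CACGTG was in 15.6% (8.32 to 25.6) against 7.91%, and the cAMP response element TGACGTCA in 1.30% (0.0329 to 7.02) against 2.26%. All words were searched on both strands. Some windows share bases, and those of Arl6 hold the same GLI core, while the intervals treat every window as independent. The consensus letters in reverse order, ACCCACCAG, were in 0 of 77 windows (upper limit 4.68%) and 0.390% of all.

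Base composition moves with the motif shares, so they were also counted within classes of G+C content, a choice made after seeing the data. Under 60% G+C, GGGCGG was in 7 of 18 overlapped windows (38.9%) and in 23.5% of 12721 in all. Between 60 and 70% it was in 88.9% of 27 and 77.1% of 5634, and at 70% or more in 93.8% of 32 and 92.5% of 2690. The looser GLI word GACCNCCCA was in 2 of 18 overlapped windows under 60% G+C (11.1% against 0.794% of all windows of that class), in 4 of 27 from 60 to 70% (14.8% against 1.47%) and in 2 of 32 at 70% or more (6.25% against 0.929%). The core CCACCCA was in 38.9% of overlapped windows under 60% G+C (9.27% of all in that class), in 40.7% from 60 to 70% (11.2%) and in 15.6% at 70% or more (7.43%). The full consensus was in 1 overlapped window of each class. For the words not counted by class, the part of base composition was not tested. The counts are small, and a matching word is not thereby a bound site. Over the 204 windows near a member, overlapped or not, the consensus was in 3 (1.47%, 0.304 to 4.24).

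**Figure D4:**
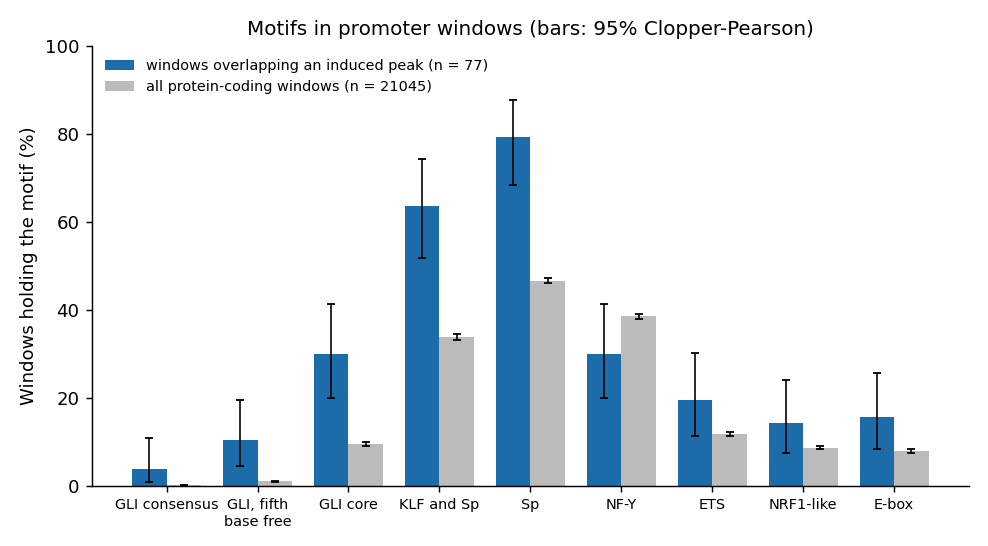
Share of promoter windows that hold each motif on either strand, for the 77 windows that a member overlaps and all 21045 protein-coding windows; error bars are exact 95% Clopper-Pearson intervals. The 3 GLI words, the KLF and Sp word and the Sp word are higher in overlapped windows (3.90, 10.4, 29.9, 63.6 and 79.2%) than in all windows (0.181, 0.993, 9.55, 33.8 and 46.7%).

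The strongest member, by its −log10 q of 38.3, lay 0.509 kb upstream of the start of Ltbp1, which encodes a protein that stores latent TGF-beta in the matrix (chromosome 17, 75004888 to 75005054). It had 28 fragments and was enriched 21.2-fold. The next (chromosome 8, 105966903 to 105967280; 20.2-fold, 27 fragments) lay 942.5 bp upstream of the start of Slc12a4, a potassium-chloride cotransporter gene. These 2 stood above the rest. The third was at Lsp1, an actin-binding protein of leukocytes (15.3-fold), and the fourth at Wbp1l (14.7-fold). Glul, glutamine synthetase, and Zfp707, a zinc finger gene, each had a peak of 14.6-fold and 19 fragments.

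Kdelr3 (14.3-fold), BC034090 and Has2 (both 13.9-fold) followed. Has2 makes hyaluronan, the matrix sugar of the developing heart valves. Pgf, a growth factor of the VEGF family, and the paired genes Oip5 and Nusap1 had peaks of 13.2-fold. Cd24a, a cell surface glycoprotein, reached 13.0-fold, Id2 12.5-fold, Prdm8, a transcriptional regulator, 12.4-fold, and the kinase gene Pim1 and the cytoskeletal gene Septin9 12.4-fold each. Smad7 stood at 11.7-fold. Rbm25, a splicing factor, and Skil closed the 20 highest at 10.96-fold, and Fbxo6 and Prtg had the same −log10 q of 13.8 as these 2. In this group the counts ran from 14 to 28 fragments, so neighbours in the order lie within counting error of each other.

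Genes of listed pathways were then read off. The 14 lists hold 403 genes, of which 28 (6.95%) had a member at an end, against 326 of 21631 protein-coding genes (1.51%). Some genes stand on more than 1 list, and the lists were written with earlier results of these data known, so the counts are a description.

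Of 24 Hedgehog pathway genes, 2 had a member. Ptch1, the receptor that holds the pathway off and is itself a GLI target, had one at its start (chromosome 13, 63573384 to 63573791; 9.93-fold, 13 fragments), with the midpoint 0.1275 kb upstream. The promoter table gives Ptch1 a window at another start, so the sequence under this peak is not shown. Gli1, the activator whose transcription reports pathway activity, had one across an edge of its gene interval (chromosome 10, 127341393 to 127341930; 8.04-fold, 10 fragments), with the midpoint 0.0825 kb outside. The promoter table gives no strand for Gli1, so whether this edge is its start or its end was not told apart. Neither the ligand genes nor Smo, Sufu, Gli2 or Gli3 had a member.

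Of 33 genes known to respond to GLI factors, 5 had a member. Bcl2, an inhibitor of cell death, had a 10.8-fold peak 0.227 kb upstream of its start (chromosome 1, 106714292 to 106714742; 14 fragments). Hes1, a repressor that responds to Notch, had an 8.20-fold peak inside the gene (chromosome 16, 30066614 to 30067009; 12 fragments). Mycn, a growth-promoting transcription factor, had a 7.21-fold peak 0.605 kb upstream (chromosome 12, 12942265 to 12942617; 10 fragments). The cell cycle genes Ccnd2 (cyclin D2) and Cdk6, its kinase partner, had weaker peaks of 5.12-fold and 5.03-fold, with 6 fragments each. Of these genes, Ccnd2 was the one with an untreated peak near by.

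The cell cycle and growth list had 6 of 30, namely Bcl2, Ccnd2, Cdk6 and Mycn again with Hmga2 and Igf1r. Hmga2, a chromatin protein of embryonic growth, had 3 members around its start (chromosome 10). They lay 0.598 kb inside the gene (6.95-fold) and 0.3255 and 0.7155 kb upstream (7.31-fold and 6.43-fold), each with 9 fragments. Igf1r, the receptor of insulin-like growth factors, had a member of 3.93-fold and 5 fragments.

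The BMP and TGF-beta list had the most, with 10 of 34 genes (29.4%). Among the ligands and their storage proteins, Ltbp1 stood first as given above, and Tgfb1 had a 5.85-fold peak 0.094 kb upstream of its start (7 fragments). Nog, which encodes the BMP antagonist noggin, had a 6.58-fold peak 0.4325 kb outside the gene (8 fragments). Of the SMADs, the inhibitory Smad7 had an 11.7-fold peak inside the gene (chromosome 18, 75367706 to 75368254; 15 fragments). Smad9, a BMP signal transducer, had an 8.34-fold peak 0.201 kb upstream of its start (11 fragments), and the inhibitory Smad6 a 5.10-fold peak at its start (6 fragments). Skil, a corepressor that restrains SMADs, had 2 members, of 10.96-fold and 8.04-fold (chromosome 3, 31094942 to 31095517 and 31093958 to 31094534).

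The Id genes encode inhibitors of basic helix-loop-helix factors and are activated by BMP. Of the 4, 3 had a member. That of Id2 was 12.5-fold and 0.7755 kb upstream of the start (chromosome 12, 25096646 to 25097089; 17 fragments). That of Id3 was 9.54-fold (chromosome 4, 136144370 to 136144761; 13 fragments) and lay within 1 kb of both ends of this short gene. That of Id4 was 6.58-fold and 0.2475 kb inside the gene (chromosome 13, 48261289 to 48261438; 8 fragments). The Poisson intervals of their 17, 13 and 8 fragments overlap (9.90 to 27.2, 6.92 to 22.2 and 3.45 to 15.8). Id1 had no member.

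**Figure D5:**
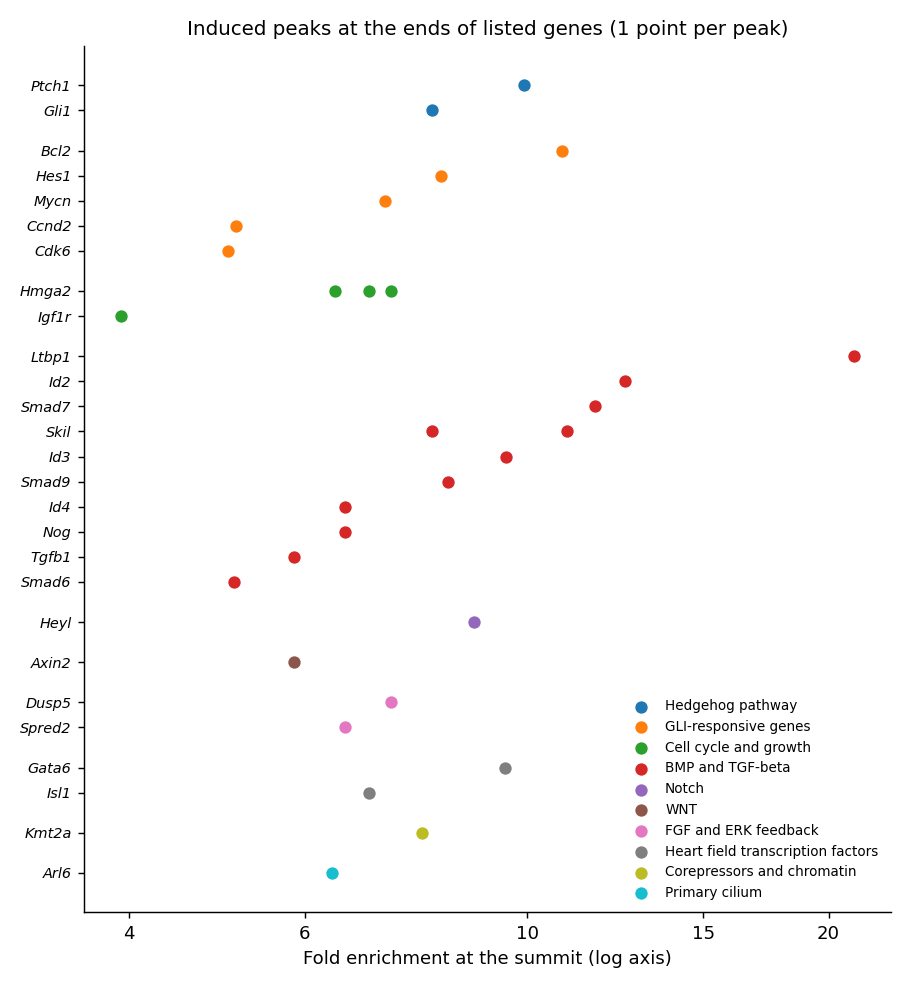
Fold enrichment (log axis) of each member at the end of a listed gene, 1 point per peak; some listed genes are not shown, and a gene on several lists is drawn under the first of its lists in the key. Ltbp1 lies highest at 21.2-fold, and Hmga2 and Skil have more than 1 peak.

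Other lists held fewer. Of 34 heart field transcription factors, Gata6 (9.50-fold, chromosome 18, 11052982 to 11053383; 12 fragments) and Isl1, a marker of the second heart field (6.95-fold, 9 fragments), had a member inside the gene. Of 18 Notch genes, Hes1 and Heyl, a Notch-responsive repressor (8.86-fold), had one. Of 27 FGF genes, the ERK feedback inhibitors Dusp5 (7.31-fold) and Spred2 (6.58-fold) did. Of 34 WNT genes, Axin2, a feedback inhibitor, did (5.85-fold). Of 33 corepressor and chromatin genes, 2 had a member (6.06%). Of these Kmt2a, a histone methyltransferase, had a 7.85-fold peak 0.012 kb from its start. Of 37 primary cilium genes, Arl6, a GTPase of ciliary transport, had a member (6.39-fold).

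In 4 lists no gene had a member: 28 cardiomyocyte genes, 28 neural progenitor genes, 27 housekeeping genes and 44 ribosomal protein genes. The share over all protein-coding genes was 1.51%, at which lists this short can hold none. These zeros therefore do not set the 4 lists apart. Of all protein-coding genes, 88 (0.407%) had an untreated-only peak at an end. Among the listed genes Hand1, a heart transcription factor, did (3.93-fold, 4 fragments).

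A gene had more than 1 member in 14 cases. Beside Hmga2, Map1b, which encodes a microtubule-associated protein, had 3, at 0.115 kb upstream (6.26-fold) and 0.334 and 0.9435 kb inside (6.95-fold and 4.39-fold). Among the genes with 2 were Cd24a, Skil, Septin9, Spen, Tle3, Tagln2, Nuak1, Blmh, Pcbp1 and Vgll4. The Vgll4 pair lay at opposite ends of the gene, with 7.31-fold near the start and 5.85-fold near the end, and the other pairs named lay within about 1 kb of each other. Peaks so close can share fragments of 1 broad site and are not independent.

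Ends of 2 or more genes were in reach of 29 members. Among the strongest were those at Oip5 and Nusap1 (chromosome 2, 119618601 to 119618839; 17 fragments), Nlgn2 and Tmem256 (9.04-fold), P4htm and Wdr6 (8.77-fold), and Krt8 and Krt78 (8.04-fold). Oip5 and Nusap1, both genes of chromosome segregation, are transcribed away from each other and overlap at their starts. The midpoint of the peak lay 215 bp upstream of the Oip5 start and 422 bp inside Nusap1. Either end, start or finish, of a long non-coding RNA gene interval also lay within 1 kb of 34 members. A microRNA gene lay within 1 kb of 3 (Mir8114 beside the Glul peak, Mir8120 at Lekr1 and Mir6924 at Acap1 and Kctd11). The same counts for other peaks are not given here.

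Members were found on all 20 chromosomes examined. An untreated peak lay within 50 kb of 53 members and within 5 kb of 3, and the median distance was 199 kb. The same values for the other doxycycline-only peaks are not given here, so these do not set the members apart. At Ccnd2 the untreated peak was 0.205 kb away (7.07-fold and 8 fragments on its own list's scale, beside 5.12-fold and 6 for the member). At Auts2 it was 1.242 kb away (4.72-fold, beside 6.39-fold) and at Id4 1.849 kb away (4.72-fold, beside 6.58-fold), each with 5 fragments. A site could enter the untreated list with 4 fragments, and whether members had fewer than that without doxycycline was not analysed here.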

How the data were processed

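The build was mm10, per the submitters' processing notes, which list MACS2 2.1.1, SAMtools 1.5 and Bowtie2 2.3.2. For settings, the use of inputs and any pooling of pull-downs, the entry is: not given in the sources used here. Fragment totals were not analysed. The authors deposited, per peak, a fold enrichment (a ratio at the summit), −log10 p and −log10 q, and a score equal to 10 times −log10 q without decimals, which was not used. Rows sharing an interval were reduced to the one of highest −log10 q (3725 doxycycline rows to 3640 peaks, 4428 untreated rows to 4379). Coordinates are counted from 1.

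Pileup and expectation were solved jointly from the fold, taken as (pileup + 1) / (expectation + 1), and the Poisson probability of more fragments than the pileup. A whole pileup matched −log10 p within 0.01 for all 313 members. Gene intervals, strand and promoter windows are RefSeq's on GRCm38.p6. In all 1841 pairs of opposite-strand windows that overlap by 50 bases or more, the shared bases were reverse complements. Steps were tested on simulated data: 100% of 2000 pileups, 200 planted gene ends and 100 planted motifs were recovered.

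The members and the gene lists were chosen with earlier results of these data known. Named genes are, by rule, those of the 20 highest −log10 q, listed genes, the 5 strongest at 2 or more genes, genes with 2 or more members, those at the rule's edges and those with an untreated peak within 5 kb. Genes tied with the 20th, and the strongest at an end alone, were added later. Some genes that this rule names are not reported here. No test was run, since each condition has 1 list. Software was matplotlib 3.10.9, scipy 1.17.1, pandas 2.3.3, numpy 2.4.6 and Python 3.11.15.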

Additional observations from a re-analysis of the deposited data

How the results depend on the processing

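No paired analysis was possible because the deposited lists, 1 per condition, do not separate replicates, and for the same reason no replicate could be left out. The share of doxycycline-only peaks at gene ends, 8.77%, was 13.5% (157 of 1167) with a −log10 q of at least 5, 14.2% (136 of 961) among the top 1000 peaks, 13.5% (481 of 3567) within 2 kb and 5.16% (184 of 3567) within 500 bp. The last 2 move by construction. The median fold, 6.39, was 7.79 at the stricter q and 8.04 in the top 1000, where weaker peaks are left out by construction. The share of windows near a member with the GLI word, 1.47%, was 4.90% with 1 base left free (GACCNCCCA), 18.1% with the core CCACCCA and, in a count added after seeing the data, 10.4% with that free base in overlapped windows, where shorter or looser words match more often by construction. The share of members at a gene start stayed within its interval under all 7 alternatives (81.3 to 89.4%), and the median G+C content under both of its own (67.0 and 67.3%). With so few fragments per summit, absence from the untreated list does not show absence of binding.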

Other observations

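Some gene families were put together after their values were seen, so their counts are a description and are inflated by that choice. Of 13 Pim, Irs, Gadd45 and Phlda genes, 8 had a member (61.5%), against 1.51% of all protein-coding genes. Pim1 (12.4-fold, 16 fragments) and Pim3 (6.58-fold) encode survival kinases. Irs1 (9.50-fold, 12 fragments) and Irs2 (5.56-fold) encode adaptors of the insulin and IGF receptors. Gadd45a (6.58-fold) and Gadd45g (4.97-fold) respond to DNA damage and stress. Phlda1 reached 7.31-fold and Phlda3 5.85-fold. Of 13 septins, which form cytoskeletal filaments, 3 had a member (23.1%), namely Septin9 (12.4-fold and 5.12-fold), Septin2 (5.68-fold) and Septin7 (5.36-fold).

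Of 1110 olfactory receptor genes 4 had a member (0.360%), below the 1.51% of all protein-coding genes. They were Olfr94, Olfr1104, Olfr1288 (each 5.12-fold, 6 fragments) and Olfr1281 (4.26-fold, 5 fragments), all near the lower limit of the list.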
